A study of Mus musculus with 2 samples.

Results

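The genes described are 10 transcription regulators that T cells switch on when their antigen receptor is engaged: Nr4a1, Nr4a2, Nr4a3, Egr1, Egr2, Egr3, Irf4, Nfkbid, Rel and Myc. They were chosen by name, as 10 of the 32285 genes counted. The study set female against male C57BL/6J mice aged 12 to 14 weeks, whose MB49 tumours, grown from a mouse bladder cancer line, were taken on day 14. Tumours were digested at 37 °C with collagenase, viable CD4+ cells were sorted according to the labels, and transcript starts were counted in droplets. There was 1 female and 1 male library, and the number of mice behind each is not given, so a difference between the sexes could not be tested. The female library kept 3468 barcodes and the male library 3519, after barcodes under 500 genes or over 10% mitochondrial counts were dropped.

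Nr4a1, Nr4a2 and Nr4a3 are orphan nuclear receptors, and Egr1, Egr2 and Egr3 are zinc finger factors. Both families are immediate early genes, transcribed within minutes to hours of calcium and MAP kinase signals, and in tumours high Nr4a activity is a known part of T cell dysfunction. Irf4 rises with the strength of the receptor signal, Rel encodes the NF-kB subunit c-Rel, Nfkbid encodes the nuclear regulator IkBNS, which acts with c-Rel in Foxp3 induction, and Myc drives growth. Immediate early genes also respond to tissue digestion. The AP-1 gene Fos and the heat shock gene Hspa1a, which report that handling signal as well as signals received in the tumour, were therefore read beside them.

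The start regions of the Nr4a paralogs are shown because these genes took different places in the cell groups below, and that of Egr2 because it represents the Egr family. From the RefSeq table of promoter windows (GRCm38.p6, 250 bases before to 50 after the start, 32851 windows), 13 windows of 7 of the 10 genes were read. Egr3 and Myc had no window there, and Egr1 was not read. Capitals mark the cAMP response element half-site TGACG on either strand and the CArG box, the binding motif of serum response factor. The Nr4a1 window lies at chr15:101266596-101266895 on the plus strand, the Nr4a2 window at chr2:57123954-57124253 on the minus strand, the Nr4a3 window at chr4:48045055-48045354 and an Egr2 window at chr10:67537619-67537918, both on the plus strand.
Nr4a1: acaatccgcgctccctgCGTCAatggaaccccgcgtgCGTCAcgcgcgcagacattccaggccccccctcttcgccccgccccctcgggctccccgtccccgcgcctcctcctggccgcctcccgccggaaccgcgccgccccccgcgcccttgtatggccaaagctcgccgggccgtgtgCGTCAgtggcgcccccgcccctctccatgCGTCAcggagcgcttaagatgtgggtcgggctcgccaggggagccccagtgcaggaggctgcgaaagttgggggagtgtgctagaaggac
Nr4a2: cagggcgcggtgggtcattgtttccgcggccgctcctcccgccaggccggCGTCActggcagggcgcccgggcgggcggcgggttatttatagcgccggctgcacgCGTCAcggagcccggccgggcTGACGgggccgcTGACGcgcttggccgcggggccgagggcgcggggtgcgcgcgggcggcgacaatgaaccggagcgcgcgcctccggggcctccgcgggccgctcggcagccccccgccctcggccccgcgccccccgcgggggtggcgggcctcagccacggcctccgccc
Nr4a3: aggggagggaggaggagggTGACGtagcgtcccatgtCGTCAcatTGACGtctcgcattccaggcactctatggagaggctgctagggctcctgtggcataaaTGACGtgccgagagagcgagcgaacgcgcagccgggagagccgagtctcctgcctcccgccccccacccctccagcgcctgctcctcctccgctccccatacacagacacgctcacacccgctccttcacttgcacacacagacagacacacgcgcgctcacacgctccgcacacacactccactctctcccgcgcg
Egr2: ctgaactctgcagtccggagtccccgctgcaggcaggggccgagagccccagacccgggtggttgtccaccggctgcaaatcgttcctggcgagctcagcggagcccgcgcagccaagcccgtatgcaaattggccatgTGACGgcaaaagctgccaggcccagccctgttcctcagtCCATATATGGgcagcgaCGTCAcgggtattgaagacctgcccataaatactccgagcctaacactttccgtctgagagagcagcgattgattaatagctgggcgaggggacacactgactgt

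Each Nr4a window held 4 half-sites. At least 1 half-site was found in 20.8% of all windows of this length, and 4 or more in 0.231%. The Egr2 window shown, chosen from several, held a CArG box, found in 1.63% of windows, and half-sites on both of its flanks. The Egr2 window at chr10:67537316-67537615 held a CArG box and no half-site, and the window at chr10:67535249-67535548 held neither. A window of Nfkbid held the full element TGACGTCA, found in 1.79% of windows. These are matches of letters, and binding was not measured. On GRCm38, the gene bodies of the other members described below lie at chr14:70077203-70082614 (Egr3), chr13:30749226-30766976 (Irf4), chr7:30421732-30428746 (Nfkbid), chr11:23736847-23770970 (Rel) and chr15:61985391-61990374 (Myc).

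Cells were grouped by unique molecular identifiers (UMIs) of marker genes. Treg cells had at least 1 Foxp3 UMI and no Cd8 UMI (233 female and 345 male cells). Other Cd4 cells had at least 1 Cd4 UMI and neither Foxp3 nor Cd8 UMIs (248 and 231). Cd8 cells had at least 2 UMIs of Cd8a and Cd8b1 together and no Foxp3 UMI (2245 and 1940), although the label names a CD4+ sort. They were split by a UMI of Havcr2, the inhibitory receptor TIM-3, and a UMI of Ifng, the cytokine interferon gamma. Levels are in CPM, UMIs per 1000000 UMIs of the group. Of genes the gates did not use, Il2ra, the interleukin-2 receptor gene typical of Treg cells, was at 593 and 552 CPM in female and male Treg cells, against 68.7 and 59.5 CPM in other Cd4 and 78.9 and 75.1 CPM in Cd8 cells. The T cell genes Cd3e, Cd3d, Cd3g and Trac were detected in all 6 groups of both libraries. A transcript start is counted once whatever the transcript's length, so levels were not divided by length. A level cannot tell more cells with transcripts from more transcripts per cell, so shares of cells are given beside the main results.

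The groups differed in depth, from a median of 17800.5 and 15724 UMIs per cell in female and male Havcr2+Ifng+ Cd8 cells to 5204.5 and 5219 in other Cd4 cells. Markers of other cell types also moved with the groups. The 13 myeloid and dendritic markers summed to 1229 and 1301 CPM in female and male Treg cells, with Itgax at 0 in both, against 168 and 113 CPM in other Cd4 cells and 125 and 257 CPM in Cd8 cells. Keratin and other epithelial markers summed to 662 CPM in female Treg cells and to at most 45.5 CPM in the other 5 sums of Treg, other Cd4 and Cd8 cells. The 4 cycling markers summed to 475 and 465 CPM in female and male Havcr2+Ifng+ Cd8 cells, against 159 and 134 CPM in Havcr2-Ifng- cells. The libraries shared 12 barcodes, and 0 of them fell in the same class.

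Levels outside T cells were read in tumour-like barcodes, with at least 5 Krt8 or Krt18 UMIs and no Cd3 UMI (31 female and 24 male). Nr4a1 stood at 7.02 and 10.1 CPM in these female and male barcodes, and Irf4 at 0. Myc was at 156 and 143 CPM there and Fos at 768 and 823 CPM, above every T cell group. Egr2 reached 7.02 and 18.3 CPM, within the range of the T cell groups.

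The clearest pattern was the mix of Nr4a paralogs. Nr4a1 was the most abundant paralog in Treg and other Cd4 cells, and Nr4a2 across all Cd8 cells. Nr4a1 stood at 376 and 672 CPM in female and male Treg cells, at 517 and 538 CPM in other Cd4 cells, and at 169 and 259 CPM in Cd8 cells. All 4 sums of CD4 lineage cells lay above both Cd8 sums. Nr4a2 had the opposite order, with 110 and 104 CPM in Treg cells, 256 and 197 CPM in other Cd4 cells, and 408 and 372 CPM in Cd8 cells, and the 3 classes did not overlap. Nr4a3 was at 117 and 147 CPM in Treg cells, 269 and 189 CPM in other Cd4 cells, and 159 and 142 CPM in Cd8 cells. It was highest in other Cd4 cells in both libraries, while Treg and Cd8 cells overlapped. The share of all genes whose classes did not overlap was not counted.

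**Figure D1:**
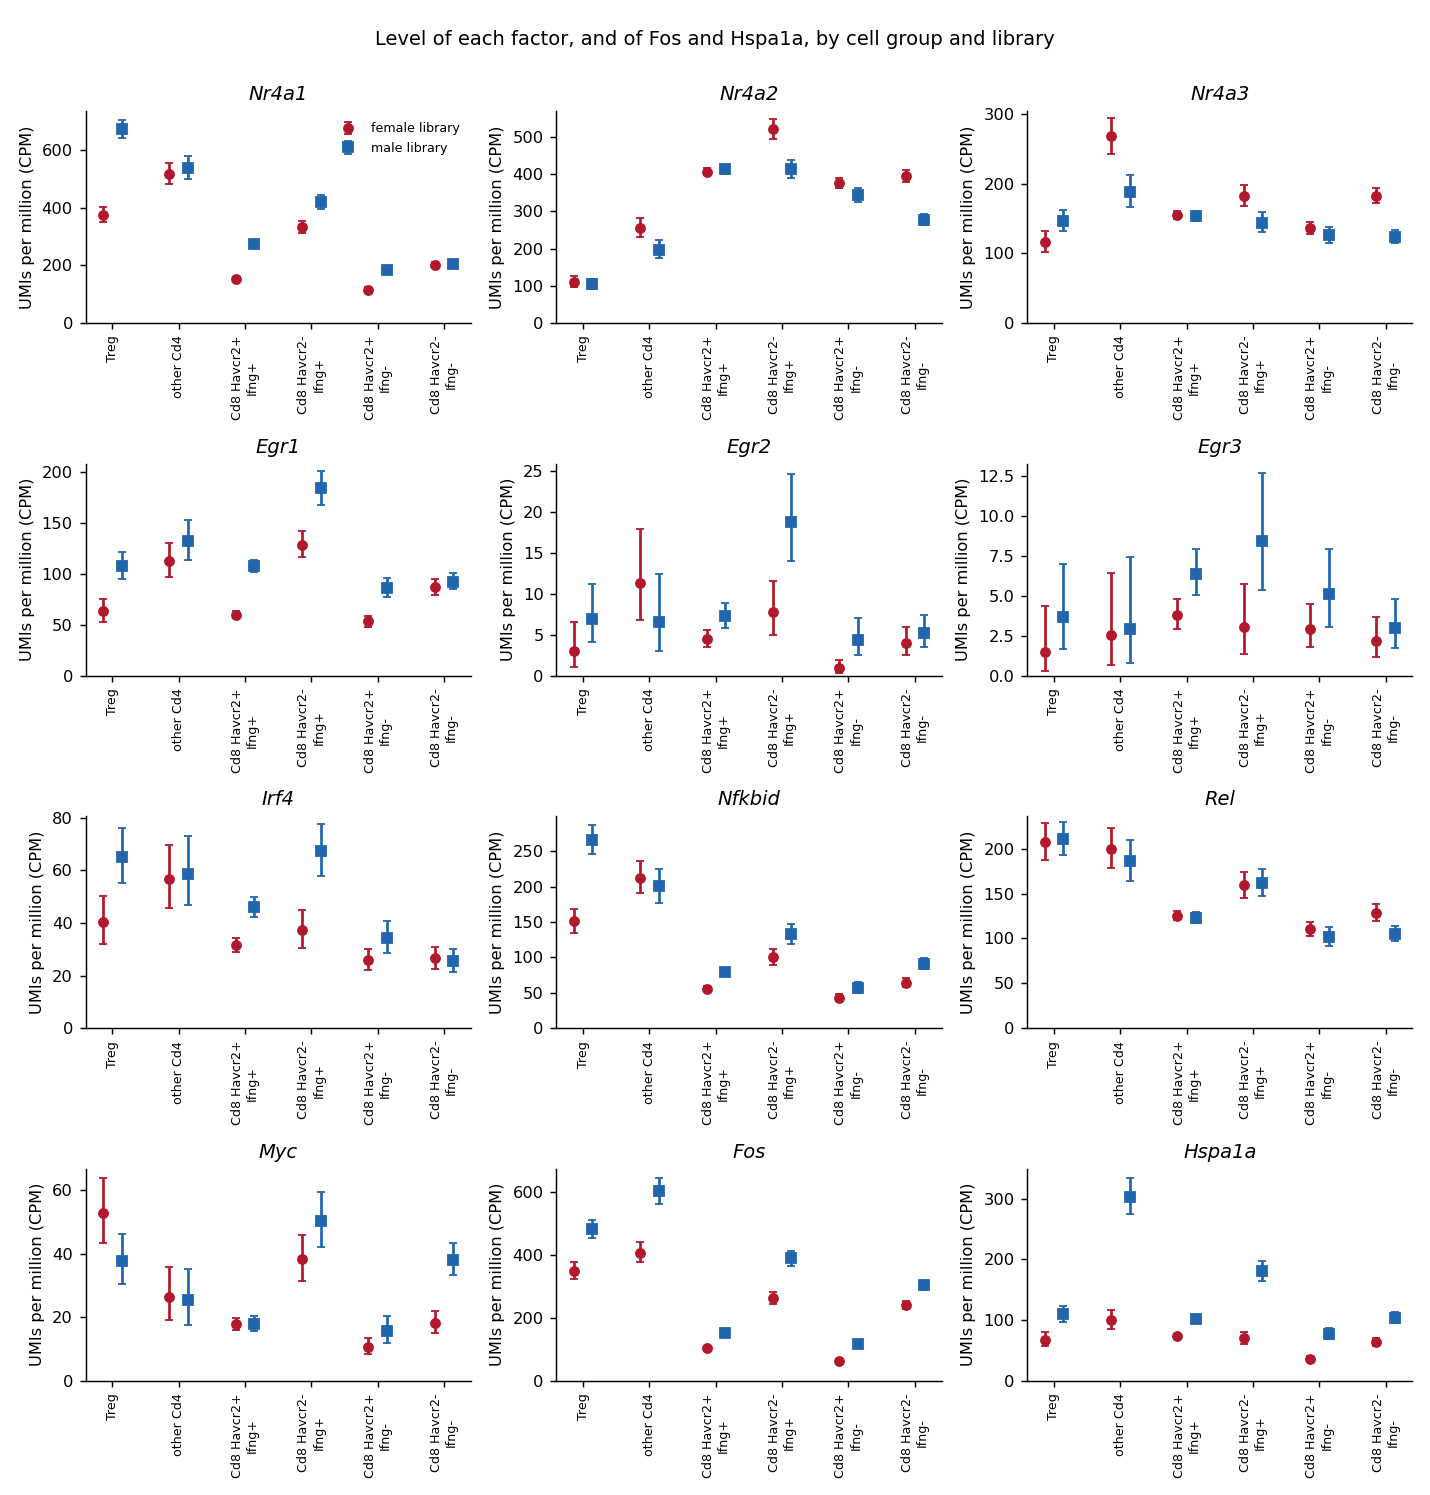
Level of each gene in CPM (y axis, from 0 in each panel) in 6 cell groups (x axis), with circles for the female library, squares for the male library and bars for the 95% Poisson counting interval. Nfkbid and Rel sit higher in the Treg and other Cd4 groups at the left of each panel and Nr4a2 sits lower there, Nr4a1 overlaps only where male Havcr2-Ifng+ Cd8 cells (418 CPM) exceed female Treg cells (376 CPM), and Fos and Hspa1a, shown in the last panels, vary with the groups as well.

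These differences were tested with edgeR's quasi-likelihood test on UMI sums per library and class, with library as a block and Benjamini-Hochberg adjustment over the 9858 genes tested. The p-values measure only whether a difference recurred in the 2 libraries. In Treg over Cd8 cells, 4 genes rose (Nr4a1, Nfkbid, Rel and Myc) and 1 fell (Nr4a2) of the 9 tested. Over all genes, 32.6% were called in that comparison, 16.1% higher and 16.4% lower, so the results rest on single genes and their sizes rather than on the count. Egr3 did not pass the filter on low counts in this fit. Nr4a1 was higher in Treg cells by a log2 of 1.12 ± 0.16 (SE, edgeR adjusted p = 0.0014), and Nr4a2 was lower, at -2.01 ± 0.10 (edgeR adjusted p = 1.2e-05).

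In other Cd4 over Cd8 cells, 6 of the 9 genes rose and 1 fell, beside 27.1% of all genes called, 13.5% higher and 13.7% lower. Nr4a1 rose by 1.28 ± 0.16 on the log2 scale (edgeR adjusted p = 0.0015), Nr4a3 by 0.53 ± 0.16 (edgeR adjusted p = 0.042), and Nr4a2 differed by -0.86 ± 0.10 (edgeR adjusted p = 0.0011). In Treg over other Cd4 cells, 0 rose and 3 fell, beside 19.1% of all genes called, 9.59% higher and 9.56% lower. These were Nr4a2 at -1.16 ± 0.11, Nr4a3 at -0.87 ± 0.17 and Egr1 at -0.64 ± 0.14 (edgeR adjusted p = 0.00051, 0.012 and 0.018). Nr4a1 did not pass in that comparison (-0.16 ± 0.16), and its direction differed between the libraries. Without the female library Nr4a3 was at -0.36 and Egr1 at -0.30, and without the male library at -1.20 and -0.84, each in the same direction. The Egr1 call was lost without cells carrying other cell types' markers (-0.24, edgeR adjusted p = 0.46) and in thinned cells (-0.45, edgeR adjusted p = 0.13).

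Because paralogs counted in the same cells share their depth, their ratio shows the mix directly. There were 3.41 Nr4a1 UMIs per Nr4a2 UMI in female Treg cells (95% interval 2.93 to 3.98) and 6.44 in male Treg cells (5.64 to 7.38). Other Cd4 cells had 2.02 and 2.72 in the female and male libraries, against 0.414 and 0.698 in Cd8 cells. Every one of the 4 Cd8 groups stayed at or below 1.01 in both libraries. The ratio of Nr4a3 to Nr4a2 was 1.06 and 1.40 in female and male Treg cells and 1.05 and 0.956 in other Cd4 cells, against 0.389 and 0.381 in Cd8 cells. Within Cd8 cells this second ratio was 0.463 and 0.445 in female and male Havcr2-Ifng- cells, and 0.348 to 0.382 in the other 3 groups of both libraries.

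**Figure D2:**
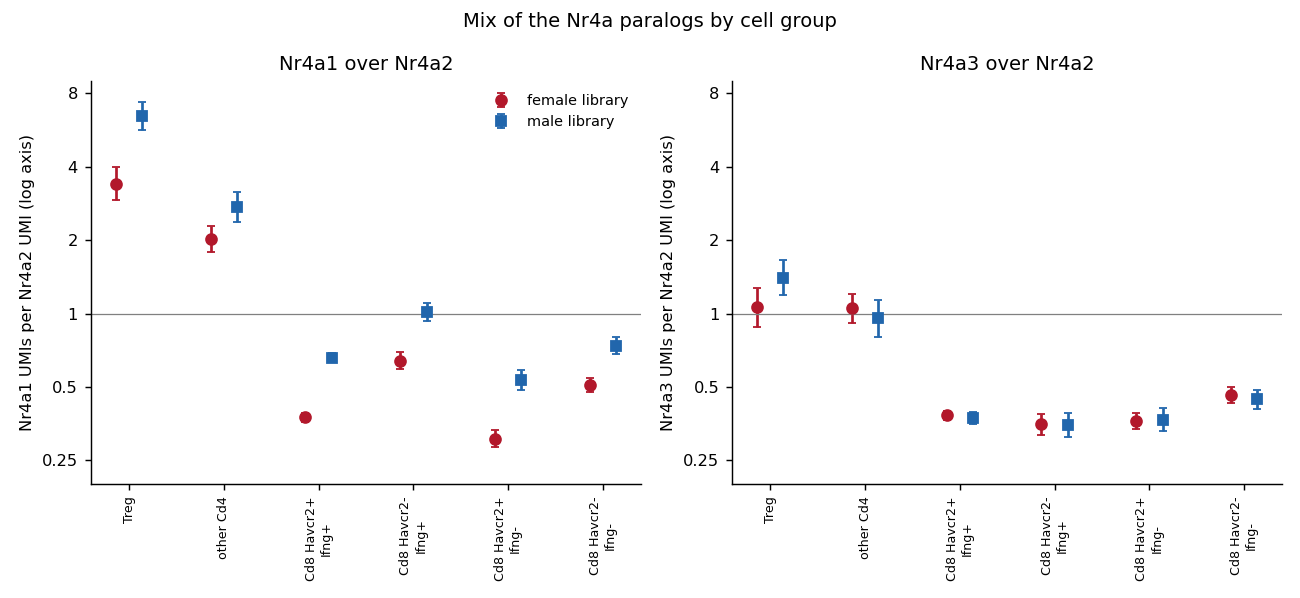
UMIs of Nr4a1 (left) and Nr4a3 (right) per Nr4a2 UMI on a log axis in 6 cell groups, with circles for the female library, squares for the male library and bars for the 95% counting interval of the ratio. Treg and other Cd4 cells sit above 2 for Nr4a1 over Nr4a2, and the Cd8 groups sit at or below 1.01.

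The share of cells told the same. Shares at equal depth are the expected shares of cells with a UMI if each cell is thinned to 3730 UMIs. With 28 and 55 Treg, 54 and 49 other Cd4 and 134 and 204 Cd8 cells of the female and male libraries left out as shallower, the Nr4a2 share was 23.1% and 17.5% in female and male Treg cells. In other Cd4 cells the shares were 42.8% and 31.5%, and in Cd8 cells 64.8% and 53.8%. The Nr4a1 share was 59.5% and 60.9% in Treg cells, 59.8% and 63.8% in other Cd4 cells, and 37.9% and 43.2% in Cd8 cells. In the 29 female and 24 male tumour-like barcodes deep enough, the expected shares were 3.65% and 2.92% for Nr4a2 and 1.75% and 3.33% for Nr4a1. Unthinned, Nr4a2 was found in 30.0% and 24.3% of Treg cells and 83.2% and 69.9% of Cd8 cells, at median depths of 6426 and 5993 UMIs against 10507 and 8859.5 UMIs.

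The NF-kB arm was higher in CD4 lineage cells. Nfkbid was at 151 and 266 CPM in female and male Treg cells and 212 and 200 CPM in other Cd4 cells, against 58.3 and 84.2 CPM in Cd8 cells. It rose by a log2 of 1.38 ± 0.17 in Treg over Cd8 cells and by 1.51 ± 0.18 in other Cd4 over Cd8 cells (edgeR adjusted p = 0.00084 and 0.0012). Rel was at 207 and 210 CPM in Treg cells and 200 and 186 CPM in other Cd4 cells, against 126 and 120 CPM in Cd8 cells, with log2 differences of 0.61 ± 0.09 and 0.58 ± 0.09 (edgeR adjusted p = 0.0015 and 0.0035). Neither gene passed the test between Treg and other Cd4 cells, with estimates of -0.13 ± 0.18 for Nfkbid and 0.03 ± 0.09 for Rel.

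Most of the NF-kB family was higher in the same classes. Of 10 other subunits and inhibitors, 10 rose in other Cd4 over Cd8 cells and 9 in Treg over Cd8 cells, with medians of 0.78 and 0.77 on the log2 scale beside -0.01 and -0.03 over all genes. Over all genes, 13.5% and 16.1% were called higher in these comparisons. Nfkbia, the inhibitor IkB alpha, was at 1583 and 1814 CPM in Treg cells and 1076 and 1389 CPM in other Cd4 cells, against 557 and 686 CPM in Cd8 cells. Bcl3, a nuclear IkB protein, rose by 1.72 ± 0.12 in Treg over Cd8 cells, and Nfkbiz, another, by 1.33 ± 0.10. In Treg over other Cd4 cells the list was split, with 2 genes higher (Bcl3 and Nfkbia) and 2 lower (Tnfaip3 and Nfkb1).

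The Egr genes followed the class less. Egr1 was at 62.9 and 107 CPM in female and male Treg cells, 112 and 132 CPM in other Cd4 cells, and 69.2 and 109 CPM in Cd8 cells, so the Treg and Cd8 ranges overlapped. It rose in other Cd4 over Cd8 cells by 0.42 ± 0.13 (edgeR adjusted p = 0.044), and this call was lost in thinned cells (0.20, edgeR adjusted p = 0.41). Against Nr4a1, however, Egr1 was scarce in CD4 lineage cells, at 0.167 and 0.160 UMIs per Nr4a1 UMI in Treg cells and 0.217 and 0.246 in other Cd4 cells. In Cd8 cells the ratio was 0.409 and 0.420, and it stayed between 0.386 and 0.469 across all 4 Cd8 groups. Egr2 and Egr3 were rare: Egr2 had 6 and 17 UMIs in female and male Treg cells, 18 and 9 in other Cd4 cells, and 134 and 188 in Cd8 cells. Egr3 had 3 and 9, 4 and 4, and 111 and 140 UMIs in these classes, in the same order. At this depth no class difference was detectable for Egr2, and none was tested for Egr3.

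Of 3 further Egr family and partner genes, 2 were tested. The partner gene Nab1 rose in other Cd4 over Cd8 cells by 0.42 ± 0.09 (edgeR adjusted p = 0.016), beside 13.5% of all genes higher.

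Irf4 was at 40.4 and 65.1 CPM in female and male Treg cells and 56.7 and 58.8 CPM in other Cd4 cells, against 30.1 and 41.8 CPM in Cd8 cells. It rose in other Cd4 over Cd8 cells by 0.64 ± 0.15 (edgeR adjusted p = 0.020), which was lost in thinned cells (0.35, edgeR adjusted p = 0.21). Its Treg over Cd8 difference of 0.40 ± 0.15 did not pass (edgeR adjusted p = 0.073).

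Myc was at 52.9 and 37.7 CPM in female and male Treg cells, 26.5 and 25.4 CPM in other Cd4 cells, and 18.3 and 25.8 CPM in Cd8 cells. A single cell held 36.8% of the Myc UMIs of female Treg cells. In Treg over Cd8 cells Myc was called at 0.89 ± 0.23 (edgeR adjusted p = 0.022), and the call was lost in 3 settings. The cause of this was not tested. Myc was at 0.05 (edgeR adjusted p = 0.94) without cells carrying other cell types' markers, with 91 female and 113 male Treg cells left. It was -0.30 without cycling cells (edgeR adjusted p = 0.48) and -0.16 in thinned cells (edgeR adjusted p = 0.76). It was 0.54 without the female library and 1.53 without the male library. The Nr4a1, Nr4a2, Nfkbid and Rel calls of Treg over Cd8 cells passed in all 3 of these settings. Among Myc's partner and antagonist genes, 3 of 7 tested rose in Treg over Cd8 cells, led by the Myc antagonist Mxd1, at 337 and 314 CPM in Treg cells against 89.8 and 79.6 CPM in Cd8 cells. Of 14 growth and biosynthesis genes linked to Myc, 1 rose (Odc1, of polyamine synthesis) and 7 fell, beside 16.1% of all genes higher and 16.4% lower in this comparison. Those that fell included the amino acid transporter gene Slc7a5 and the nucleolar gene Npm1.

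Fos was higher in both CD4 lineage classes than in Cd8 cells, and Hspa1a in other Cd4 cells. Fos was at 349 and 481 CPM in female and male Treg cells and 407 and 602 CPM in other Cd4 cells, against 135 and 208 CPM in Cd8 cells. Hspa1a was at 67.4 and 110 CPM in Treg cells and 99.6 and 303 CPM in other Cd4 cells, against 63.8 and 107 CPM in Cd8 cells. Fos rose by 1.14 ± 0.09 in Treg over Cd8 cells and by 1.5 ± 0.09 in other Cd4 over Cd8 cells (edgeR adjusted p = 0.0001 and 9.7e-05). Hspa1a rose in other Cd4 over Cd8 cells by 1.06 ± 0.20 (edgeR adjusted p = 0.0081) and did not pass in Treg over Cd8 cells (-0.12 ± 0.21). Of 25 dissociation stress genes, 15 were higher and 2 lower in other Cd4 over Cd8 cells, beside 13.5% of all genes higher and 13.7% lower. In Treg over Cd8 cells 6 were higher and 7 lower, beside 16.1% and 16.4% of all genes. In Treg over other Cd4 cells 1 was higher and 12 lower, beside 9.59% and 9.56% of all genes.

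To separate the factors from that signal, the fits were repeated in low-stress cells, whose Fos and Hspa1a were both at or below the library's median. For Fos this median was 0 CPM among female cells but 70.8 CPM among male cells, and for Hspa1a it was 0 CPM in both libraries. These were 97 and 142 Treg, 101 and 71 other Cd4 and 1146 and 942 Cd8 cells of the female and male libraries. In low-stress Treg over Cd8 cells, Nr4a1 differed by a log2 of 1.22, Nr4a2 by -2.64, Nfkbid by 1.64 and Rel by 0.71 (edgeR adjusted p = 3.5e-05, 8.3e-08, 1.2e-06 and 0.00097). Each was at least as large as in all cells. In high-stress cells, of which there were 5 female and 14 male Treg cells, Nfkbid alone passed in Treg over Cd8 cells (1.49, edgeR adjusted p = 0.034), with Nr4a1 at 1.13, Nr4a2 at -0.72 and Rel at 0.27. In low-stress other Cd4 over Cd8 cells the same 4 genes passed, with Nr4a1 at 1.18, Nr4a2 at -1.0, Nfkbid at 1.95 and Rel at 0.53 (edgeR adjusted p = 0.0002, 0.00022, 2.7e-06 and 0.02). Nr4a3 (0.20), Egr1 (0.30) and Irf4 (0.60) no longer passed there (edgeR adjusted p = 0.37, 0.44 and 0.21). In a second low-stress set, cells with no Fos and no Hspa1a UMI after thinning, Irf4 passed at 0.89 (edgeR adjusted p = 0.021), so its call depended on how low-stress cells were defined. For Treg over other Cd4 cells, 3 members passed in all cells and 2 in low-stress cells. There were 5 in the second low-stress set and 0 in high-stress cells. Over all genes, 1887, 1288, 1356 and 95 were called in these settings, in the same order. Treg over Cd8 cells gave 3209, 2449 and 211 genes in all, low-stress and high-stress cells.

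**Figure D3:**
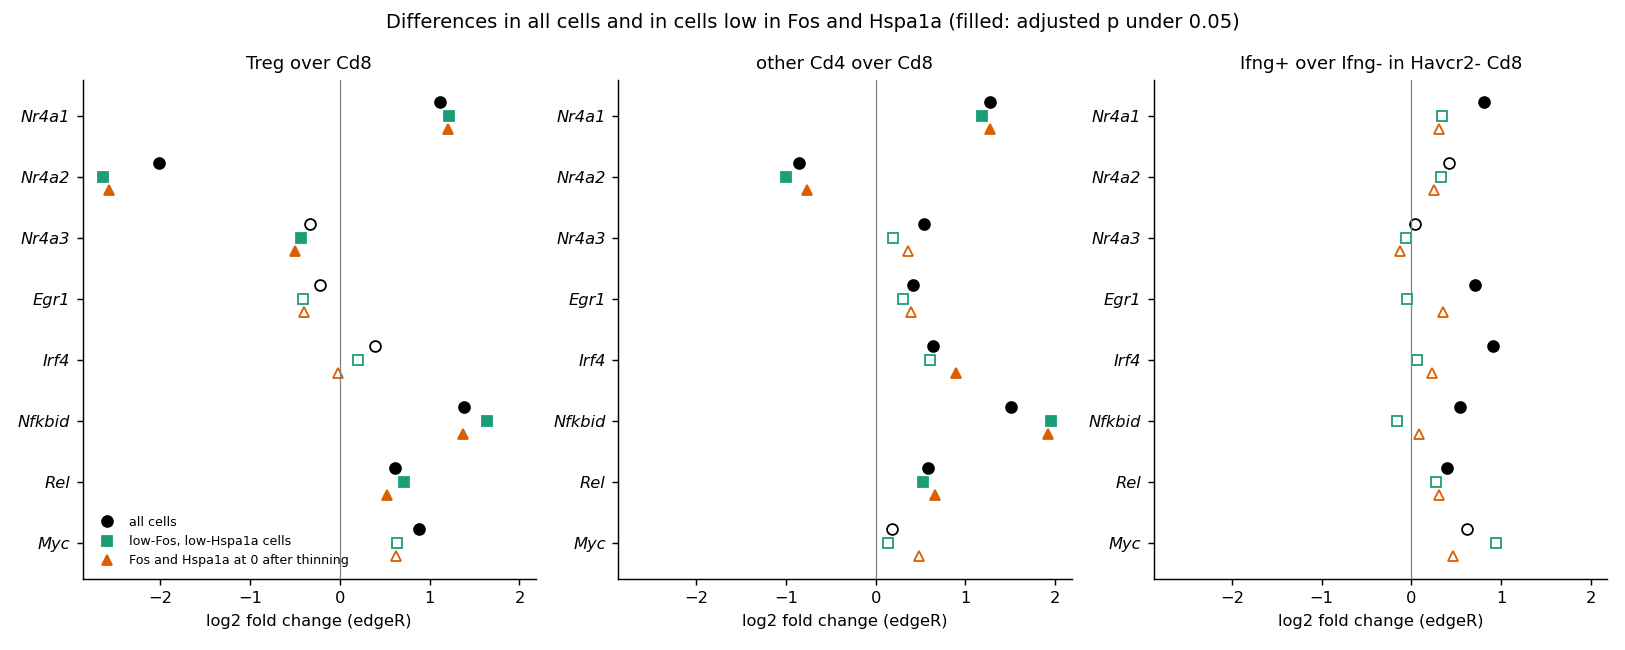
Log2 fold change (x axis) of 8 genes in 3 comparisons, in all cells (circles), in cells with low Fos and Hspa1a (squares) and in cells with no UMI of either after thinning (triangles), with filled symbols where the edgeR adjusted p was under 0.05. Nr4a1, Nr4a2, Nfkbid and Rel keep filled symbols in the class comparisons, and every symbol of the low-stress sets is open in the comparison by Ifng.

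Within Cd8 cells, the factors went with Ifng, which is described first at equal depth. In cells thinned to 3730 UMIs and grouped by Ifng UMIs left after thinning, Nr4a1 in female Havcr2+ cells was at 135, 243 and 528 CPM with 0, 1 to 2 and at least 3 Ifng UMIs (851, 294 and 97 cells). In male Havcr2+ cells it was at 211, 360 and 908 CPM (515, 247 and 121 cells). In Havcr2- cells the values were 242, 460 and 978 CPM in the female library and 237, 481 and 1130 CPM in the male library. All 4 series went up at both steps. Without thinning, female Havcr2+ cells had 115, 132, 147 and 194 CPM with 0, 1 to 2, 3 to 9 and at least 10 Ifng UMIs. Male Havcr2+ cells had 183, 206, 234 and 375 CPM over these steps. Female Havcr2- cells had 200, 268, 428 and 510 CPM and male ones 205, 353, 428 and 853 CPM, with 12 and 15 cells at the top. A UMI number stands for a higher Ifng level in a thinned cell than in a deeper one, so the thinned and unthinned steps are not alike.

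In Havcr2+ cells, Nr4a3 differed mainly at the top step, and Nr4a2 and Irf4 went up at both. Nr4a3 in male Havcr2+ cells was at 134, 139 and 383 CPM over the same 3 Ifng steps, and in female Havcr2+ cells at 150, 147 and 293 CPM. Nr4a2 was at 390, 466 and 749 CPM in female Havcr2+ cells and at 347, 418 and 928 CPM in male ones. Irf4 was at 20.8, 49.2 and 88.4 CPM in female Havcr2+ cells, from 66, 54 and 32 UMIs. Male Havcr2+ cells had Irf4 at 39.6, 47.8 and 148 CPM, with overlapping counting intervals at the first step. Irf4 in female Havcr2- cells was at 30.3, 29.8 and 55.2 CPM, and Rel in female Havcr2+ cells at 124, 124 and 182 CPM. Egr2 had 12 UMIs in the 97 female Havcr2+ cells of the top step and 5 in the 851 cells without Ifng. Fos and Hspa1a went up too, to 404 and 169 CPM in the top step of female Havcr2+ cells, against 83.8 and 53.6 CPM without Ifng.

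**Figure D4:**
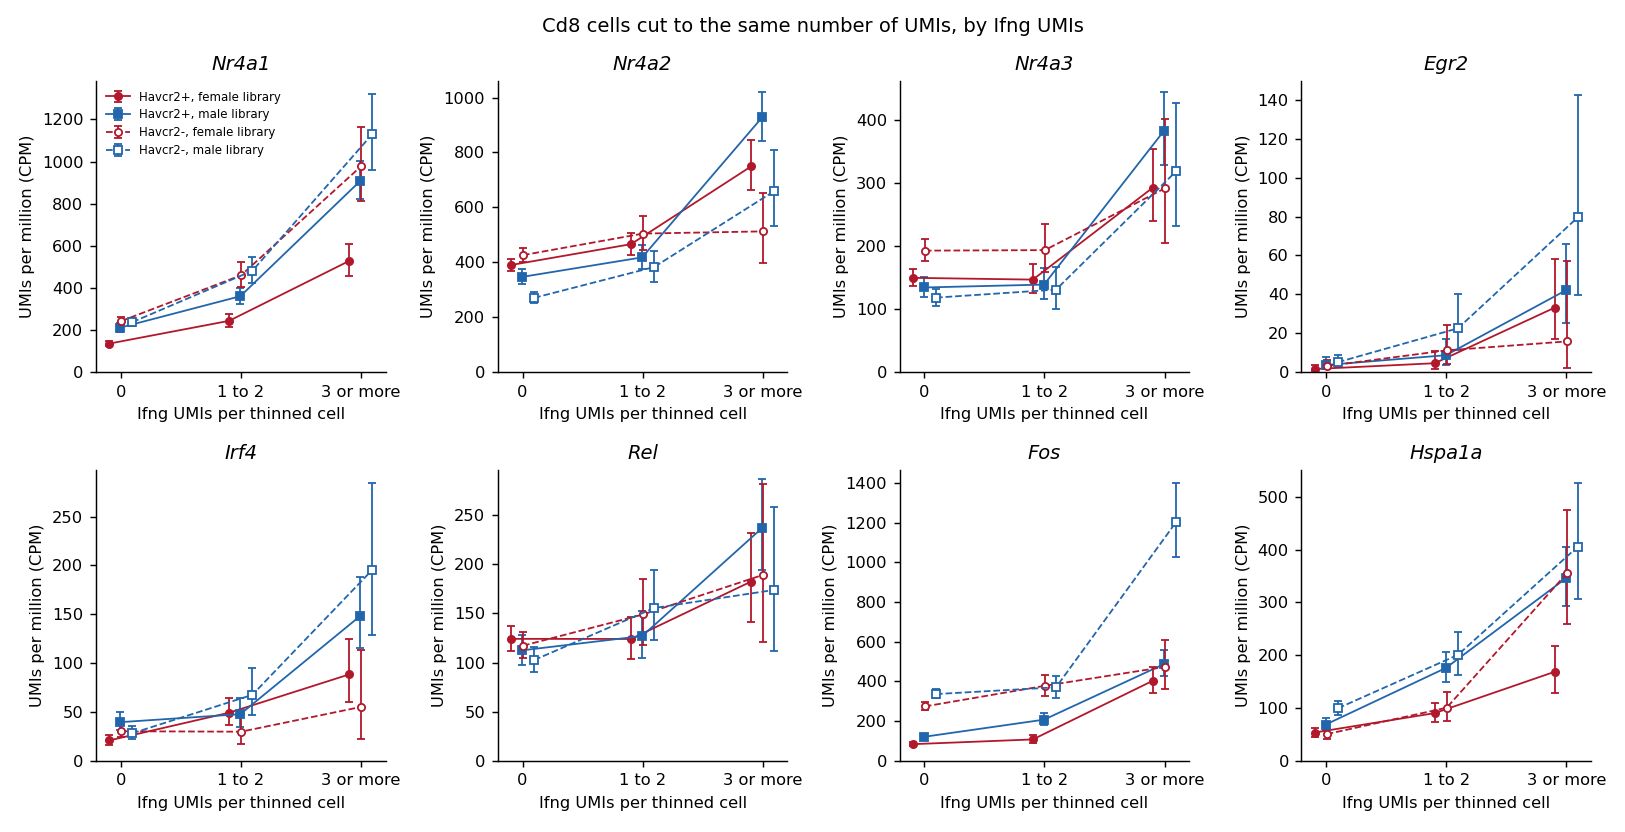
Level in CPM (y axis, from 0) of 6 factors, Fos and Hspa1a in Cd8 cells thinned to 3730 UMIs, by Ifng UMIs left per cell (x axis), for Havcr2+ cells (filled, solid lines) and Havcr2- cells (open, dashed lines) of the female (circles) and male (squares) libraries, with 95% Poisson intervals. Nr4a1 climbs at both steps in all 4 series, and Fos and Hspa1a end highest in cells with at least 3 Ifng UMIs.

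The tests on unthinned sums used the 4 Cd8 groups and 11355 genes. In Havcr2- cells, Nr4a1 was at 333 and 418 CPM in female and male Ifng+ cells against 200 and 205 CPM in Ifng- cells, a log2 difference of 0.81 ± 0.15 (edgeR adjusted p = 0.027). Irf4 was at 37.2 and 67.3 CPM in Ifng+ cells against 26.6 and 25.5 CPM in Ifng- cells (0.90 ± 0.18, edgeR adjusted p = 0.033). Egr1 was at 128 and 183 CPM against 86.7 and 92.2 CPM (0.71 ± 0.14, edgeR adjusted p = 0.037). With Nfkbid (0.54 ± 0.08) and Rel (0.40 ± 0.09), 5 of 10 members rose and 0 fell, beside 2.24% of all genes called, 1.19% higher and 1.05% lower. The median of the 10 was 0.67 on the log2 scale, against a value within 0.01 of 0 over all genes. Irf4 was at 1.40 without the female library and 0.49 without the male library, and without the library block 0 members passed. With at least 5 Cd8 UMIs required, 1 member passed, Nfkbid. Over all genes, 2 were called without the block and 43 with this Cd8 rule.

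These calls were lost within stress strata, which hold fewer cells. In low-stress Havcr2- cells 0 members passed, with Nr4a1 at 0.34, Irf4 at 0.07, Egr1 at -0.05 and Nfkbid at -0.16 (edgeR adjusted p = 0.18, 0.92, 0.94 and 0.74), from 116 and 113 Ifng+ cells of the female and male libraries. In high-stress cells, with 18 and 39 Ifng+ cells, 0 passed either, with Nr4a1 at 0.99 and Irf4 at 1.27. Over all genes, 111 were called in the low-stress and 63 in the high-stress cells. In all Havcr2- cells Fos differed by 0.18 ± 0.09 and Hspa1a by 0.46 ± 0.18, and neither passed (edgeR adjusted p = 0.38 and 0.24). Of the 25 dissociation stress genes 2 rose there, Dusp1 and Klf6, and 2 fell, Socs3 and Klf2, beside 1.19% of all genes higher and 1.05% lower. In thinned Havcr2- cells Fos was at 274, 378 and 473 CPM over the 3 Ifng steps in the female library and at 336, 370 and 1203 CPM in the male library. Among 31 other genes induced by the receptor, 8 rose and 0 fell in Ifng+ Havcr2- cells, such as the chemokine genes Ccl3 (3.26 ± 0.24) and Ccl4 (2.15 ± 0.15) and the cytokine gene Tnf (0.91 ± 0.12).

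In Havcr2+ cells, Nfkbid was the 1 member called, beside 1.57% of all genes, 1.03% higher and 0.537% lower. It was at 55.3 and 79.0 CPM in female and male Ifng+ cells against 43.0 and 56.7 CPM in Ifng- cells (0.43 ± 0.08, edgeR adjusted p = 0.036). Fos rose as well (0.56 ± 0.10, edgeR adjusted p = 0.033), Hspa1a differed by 0.74 ± 0.18 (edgeR adjusted p = 0.071), and 3 of 25 dissociation stress genes rose and 0 fell. Low-stress cells, high-stress cells and cells with neither gene after thinning gave 145, 5 and 28 genes called in this comparison. In low-stress cells, in high-stress cells and in cells with neither gene after thinning, 0 members passed, with Nfkbid at 0.37, 0.45 and 0.38 (edgeR adjusted p = 0.25, 1.0 and 0.20).

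Nr4a1 in these Havcr2+ cells was at 152 and 272 CPM in female and male Ifng+ cells against 115 and 183 CPM in Ifng- cells, higher in both libraries, and did not pass (0.51 ± 0.14, edgeR adjusted p = 0.11). The Ifng+ cells of this comparison were deeper, and thinning before gating changed the count: 8 of 10 members then rose, including Nr4a1 at 1.36, Egr1 at 1.06 and Nr4a2 at 0.75 (edgeR adjusted p = 2.8e-08, 1.9e-05 and 5.4e-05). Over all genes, 71 were called after thinning, against 178 in unthinned sums. DESeq2 called 0 members here, beside 146 of all genes. An unadjusted edgeR p under 0.05 was found for 6 members, beside 1768 of the 11355 genes tested. Whether the Ifng difference itself changes with Havcr2 was tested as an interaction (edgeR), and 0 of 10 members passed, beside 0.00881% of all genes. An unadjusted edgeR p under 0.05 was found there for 2 members, beside 1068 of the 11355 genes.

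Havcr2 went the other way. In Ifng- cells, Havcr2+ cells had Nr4a1 at 115 and 183 CPM in the female and male libraries, against 200 and 205 CPM in Havcr2- cells, a difference of -0.54 ± 0.15 (edgeR adjusted p = 0.030). Nfkbid was at 43.0 and 56.7 CPM against 63.9 and 90.6 CPM (-0.68 ± 0.09, edgeR adjusted p = 0.0007), and Myc at 10.8 and 15.8 CPM against 18.2 and 38.1 CPM (-1.12 ± 0.25, edgeR adjusted p = 0.012). The groups did not overlap for any of the 3, which the test had picked from these same sums. The share of all genes without overlap was not counted. Thus 3 of 10 members fell and 0 rose, beside 18.1% of all genes called, 9.37% higher and 8.73% lower. Nr4a2 differed by 0.06 ± 0.10. In these cells Fos was at 64.3 and 117 CPM against 240 and 303 CPM (-1.69 ± 0.10), and 17 of 25 dissociation stress genes fell and 0 rose.

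Low-stress cells kept Nr4a1 at -0.58 and Nfkbid at -0.84 (edgeR adjusted p = 0.0026 and 0.0020) and not Myc (-0.72, edgeR adjusted p = 0.19). Thinning before gating moved Nfkbid to -0.15 and Nr4a1 to -0.35 (edgeR adjusted p = 0.56 and 0.053) and left Myc at -1.58 (edgeR adjusted p = 0.0008). Without the female library Nr4a1 was at -0.16, and without the male library at -0.80. Egr1, at -0.47 and not called in unthinned sums, was called in thinned cells at -0.46 (edgeR adjusted p = 0.013). The median depth was 11182 and 9942 UMIs in female and male Havcr2+Ifng- cells against 6990 and 6712 UMIs in Havcr2-Ifng- cells, and its part in the result was not tested otherwise. A single cell held 30.5% of the Myc UMIs of male Havcr2+Ifng- cells. Epithelial markers summed to 3.2 and 26.6 CPM in female and male Havcr2+Ifng- cells against 206 and 2.48 CPM in Havcr2-Ifng- cells. Without cells carrying other cell types' markers Myc was at -1.26 (edgeR adjusted p = 0.0019). Of the 31 receptor-induced genes, 13 rose and 7 fell with Havcr2, beside 9.37% of all genes higher and 8.73% lower. Those that rose included Tnfrsf9, encoding 4-1BB, and the repressor gene Zbtb32.

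Between the extremes, Havcr2+Ifng+ over Havcr2-Ifng- cells, Egr3 (0.93 ± 0.30) and Irf4 (0.50 ± 0.15) rose and Myc (-0.63 ± 0.20) and Nfkbid (-0.25 ± 0.08) fell, beside 33.2% of all genes called, 17.6% higher and 15.6% lower. Egr3 was at 3.79 and 6.4 CPM in female and male Havcr2+Ifng+ cells against 2.15 and 3.01 CPM in Havcr2-Ifng- cells, from 69 and 81 against 13 and 17 UMIs. The directions changed with thinning: thinned before gating, Nr4a1 was at 1.01, Nr4a3 at 0.51, Egr1 at 0.59, Nfkbid at 0.84 and Myc at 0.10, each opposite in sign to its value in unthinned sums. Without the male library Myc was at -0.02. DESeq2 called 0 members here, as did edgeR in cells with neither Fos nor Hspa1a after thinning. Over all genes, these settings called 2105 and 2240. Of the 4 calls, 1 remained with at least 5 Cd8 UMIs (Egr3) and 1 with at least 3 Ifng and 2 Havcr2 UMIs (Irf4). These gates called 2856 and 3469 of all genes.

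Per cell, few members were seen together. At 3730 UMIs, a cell held a UMI of 2.31 ± 1.54 of the 10 members in female and 2.68 ± 1.73 in male Havcr2+Ifng+ cells (SD over cells), and other Cd4 cells of the female library had the highest mean, 2.80 ± 1.68. Between 7.14% and 14.5% of cells held none in the 6 groups of both libraries. Spearman correlations across thinned cells of a group and library were weak and are given as a description. For Nr4a1 and Ifng they ran from 0.23 to 0.30 over the Ifng+ groups, for Nr4a1 and Fos from -0.02 to 0.31, and for Nr4a1 and Hspa1a from -0.14 to 0.13.

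Across the 12 sums of 6 groups and 2 libraries, the genes most like each member were ranked by Pearson's r of log2(CPM + 1) among 5716 genes, as a description. The sums share libraries and depth. Nr4a1 was most like the phosphatase gene Dusp1 (r = 0.95), followed by Csrnp1, Plk3 and Zfp654 (0.93 each). Egr2 was most like the cytokine gene Tnf (0.92) and then the activation marker gene Cd69 (0.79). Irf4 was most like Tnfsf9 (0.92), the 4-1BB ligand gene, Nr4a3 most like Serpinb1a (0.89), and Myc most like the kinase gene Sgk1 (0.82). Among members, Nr4a1 and Nfkbid had r = 0.97 and Nr4a1 and Nr4a2 had r = -0.58. Nr4a1 and Fos had r = 0.90.

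Between the libraries, Nr4a1 was lower in female cells of some groups and level in others. It was at 376 CPM in female and 672 CPM in male Treg cells, a log2 ratio of -0.84 (95% counting interval -0.96 to -0.71), and at 152 and 272 CPM in female and male Havcr2+Ifng+ Cd8 cells, again -0.84 (-0.91 to -0.76). In other Cd4 cells (-0.06) and Havcr2-Ifng- Cd8 cells (-0.03) the intervals included 0. Egr1 had the same order, with -0.77 in Treg and -0.84 in Havcr2+Ifng+ cells, against -0.24 in other Cd4 and -0.09 in Havcr2-Ifng- cells. Nr4a2 and Nr4a3 were instead higher in the female library in Havcr2-Ifng- Cd8 cells, by 0.50 (0.41 to 0.60) and 0.56 (0.42 to 0.70). Their ratios were also above 0 in Havcr2-Ifng+ Cd8 cells (0.33 and 0.35) and other Cd4 cells (0.37 and 0.51), with intervals excluding 0. They were 0.13 and 0.11 in Havcr2+Ifng- cells, -0.02 and 0.02 in Havcr2+Ifng+ cells, and 0.08 and -0.33 in Treg cells.

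At a 1.5-fold difference either way, 4 of 8 measured members were lower in female Treg cells (Nr4a1, Egr1, Irf4 and Nfkbid) and 0 higher, beside 13.7% of all genes, 7.3% higher and 6.37% lower. In Havcr2+Ifng+ cells 2 of 8 were lower (Nr4a1 and Egr1), beside 1.73% of all genes (0.6% higher, 1.13% lower), and in Havcr2-Ifng+ cells 2 of 9 (Egr2 and Irf4), beside 9.01% (4.42% higher, 4.6% lower). In Havcr2+Ifng- cells 2 of 8 were lower (Nr4a1 and Egr1), beside 4.87% (1.8% higher, 3.07% lower), and in Havcr2-Ifng- cells 1 of 8 (Myc, -1.07), beside 5.77% (3.85% higher, 1.92% lower). In other Cd4 cells 1 of 9 was higher (Egr2, from 18 female and 9 male UMIs), beside 15.7% of all genes (8.05% higher, 7.7% lower).

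Fos and Hspa1a were also lower in the female library in all 6 groups, with log2 ratios of -0.87 to -0.34 for Fos and -1.61 to -0.47 for Hspa1a. The low-stress sets were cut at different Fos levels in the libraries, so ratios are given for cells with neither gene after thinning, a rule alike in both. There the Nr4a1 ratio was -0.23 in Treg cells, -0.65 in Havcr2+Ifng+ and -0.53 in Havcr2+Ifng- Cd8 cells, and the Egr1 ratio in Treg cells was 0.32. The Nr4a2 and Nr4a3 ratios in Havcr2-Ifng- cells were 0.56 and 0.55. Sex, library and handling cannot be told apart with 1 library of each.

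**Figure D5:**
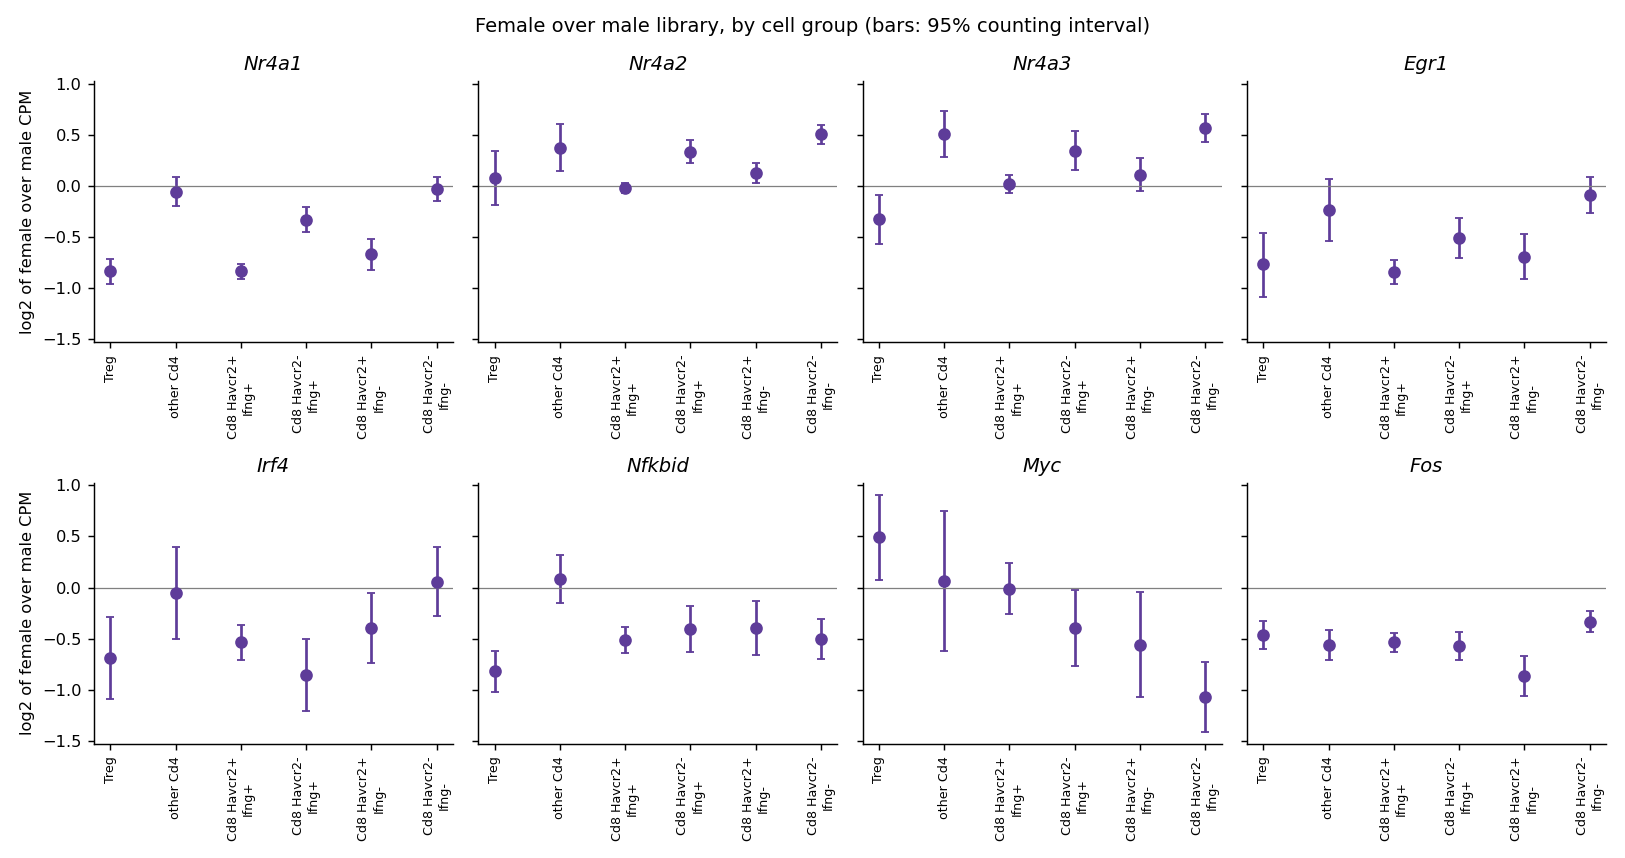
Log2 ratio of the female over the male library's level (y axis) in 6 cell groups (x axis) for 7 factors and Fos, with points for the ratio and bars for its 95% counting interval, positive values being higher in the female library. Nr4a1 and Egr1 sit lowest in Treg and in the 2 Havcr2+ Cd8 groups, and Fos is below 0 in every group.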

How the data were processed

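Unique molecular identifier (UMI) counts per gene and barcode were used as deposited. The file headers name Cell Ranger 7.0.1 as the software that wrote these count matrices for the authors. The submitters' processing notes list GRCm38 and Seurat 5, and do not say for which step. The members and lists were chosen with earlier results of these data known. A barcode needed 500 genes and could hold up to 10% mitochondrial UMIs (6987 barcodes, of which 5242 fell in a class). No doublet caller was run, and the gates left out 887 barcodes with both Foxp3 and Cd8 UMIs. Gene positions are those of the GRCm38 annotation.

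UMIs were summed per library and group and tested with edgeR 4.0.16 (R 4.3.3, TMM, filterByExpr, quasi-likelihood test, library as a block, adjusted p of 0.05), in 1 fit for the Cd8 groups and 1 for the 3 classes, with DESeq2 1.42.0 as an alternative. The code was tested on simulated counts. All groups come from the same libraries, so the library number pairs them: the deviations of a library from the group means correlated between groups with r of 0.22 to 0.70 over genes. Ratios of female over male CPM have exact 95% intervals for counting error only, and genes needed 10 CPM in a library and 20 UMIs over both. Equal-depth values used cells thinned to 3730 UMIs, the 10th percentile of classed cells. The named genes were the members, Fos, Hspa1a, the gate genes, up to 4 called genes of each list with the largest change, and the 4 genes most like a member. The results of 1 further gene list and 1 marker list are not reported here. Python 3.11.15, numpy 2.4.6, scipy 1.17.1, pandas 2.3.3 and matplotlib 3.10.9 were used.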

Additional observations from a re-analysis of the deposited data

Results flagged for a closer look

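Some values moved in opposite directions in the female and male libraries, and with 1 library of each sex none of these differences was tested. In Havcr2+Ifng+ over Havcr2-Ifng- Cd8 cells, the log2 difference of Nr4a1 was -0.40 among female cells and 0.41 among male cells. That of Nr4a3 was -0.23 among female cells and 0.32 among male cells, and that of Egr1 was -0.53 among female cells and 0.22 among male cells. In Treg over other Cd4 cells, Nr4a1 differed by -0.46 among female cells and 0.32 among male cells, and Nfkbid by -0.49 among female cells and 0.41 among male cells.

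The female over male ratio also changed sign between cell groups. For Nr4a3 its log2 was 0.56 in Havcr2-Ifng- Cd8 cells and -0.33 in Treg cells. For Myc it was 0.49 in Treg cells, where a single cell held 36.8% of the female UMIs, and -1.07 in Havcr2-Ifng- Cd8 cells.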

How the results depend on the processing

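Counts of all genes called are given here by setting. At an edgeR adjusted p of 0.05 they were 178 for Ifng in Havcr2+ cells, 254 for Ifng in Havcr2- cells, 2055 for Havcr2 in Ifng- cells, 3772 for Havcr2+Ifng+ over Havcr2-Ifng- cells, 1 for the interaction, 1887 for Treg over other Cd4, 3209 for Treg over Cd8 and 2676 for other Cd4 over Cd8 cells. Without the replicate block for library, the counts were 1 for Ifng in Havcr2+ cells, 2 for Ifng in Havcr2- cells, 1093 for Havcr2 and 0 for the interaction, and 0 members passed in any Cd8 comparison. In that fit 5 members passed in Treg over Cd8, 4 in other Cd4 over Cd8 and 2 in Treg over other Cd4 cells. Over all genes, 3034, 2454 and 1783 passed there, in the same order. DESeq2 called 1141 genes for Havcr2, 2105 for Havcr2+Ifng+ over Havcr2-Ifng-, 105 for the interaction, 2018 for Treg over Cd8 and 1670 for other Cd4 over Cd8 cells. With no filter on low counts the counts were 713 and 865 for Ifng in Havcr2+ and Havcr2- cells and 308 for the interaction.

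Stricter gates gave 77 and 43 for Ifng in Havcr2+ and Havcr2- cells, 1335 for Havcr2 and 0 for the interaction (at least 5 Cd8 UMIs), and 82 for Ifng in Havcr2+ cells and 6 for the interaction (at least 3 Ifng and 2 Havcr2 UMIs). Without the cells of highest UMI count there were 68 for Ifng in Havcr2+ cells and 5 for the interaction. Without cells carrying other types' markers there were 448 for Ifng in Havcr2- cells, 9 for the interaction and 1022 for Treg over other Cd4 cells. Without cycling cells there were 30 for Ifng in Havcr2+ cells, 2417 for Havcr2+Ifng+ over Havcr2-Ifng-, 4 for the interaction and 1518 for other Cd4 over Cd8 cells. There, Nfkbid turned to 0.17 in Havcr2+Ifng+ over Havcr2-Ifng- cells, and Myc to -0.30 in Treg over Cd8 cells.

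Thinned before gating, the counts were 71 and 120 for Ifng in Havcr2+ and Havcr2- cells, 779 for Havcr2, 867 for Havcr2+Ifng+ over Havcr2-Ifng-, 5 for the interaction, 1224 for Treg over other Cd4 and 1576 for other Cd4 over Cd8 cells. In Havcr2+Ifng+ over Havcr2-Ifng- cells, Nr4a1 (1.01), Nr4a3 (0.51), Egr1 (0.59), Nfkbid (0.84), Myc (0.10) and Fos (0.21) then changed sign, as did Myc in Treg over Cd8 cells (-0.16). The cause was not tested.

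Low-stress cells gave 111 for Ifng in Havcr2- cells, 1127 for Havcr2 and 1407 for other Cd4 over Cd8 cells, and Egr1 (-0.049) and Nfkbid (-0.16) changed sign for Ifng in Havcr2- cells. Cells with neither Fos nor Hspa1a after thinning, a setting chosen after seeing the data, gave 28 and 9 for Ifng in Havcr2+ and Havcr2- cells, 837 for Havcr2, 2240 for Havcr2+Ifng+ over Havcr2-Ifng-, 0 for the interaction and 1405 for other Cd4 over Cd8 cells. High-stress cells are few, down to 5 female Treg cells, and gave 5, 63, 193 and 593 for the Cd8 comparisons in the order above and 95, 211 and 246 for the class comparisons. Nr4a2 was at 0.99 there in Treg over other Cd4 cells, and Irf4 at -0.0037 in other Cd4 over Cd8 cells.

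Between female and male cells, in the order Havcr2+Ifng+, Havcr2-Ifng+, Havcr2+Ifng-, Havcr2-Ifng-, Treg and other Cd4, the genes past 1.5-fold numbered 133, 706, 378, 442, 1111 and 1248. At a minimum of 50 CPM they were 40, 108, 65, 102, 178 and 175, and in high-stress cells 910, 1226, 991, 1076, 558 and 519. Low-stress cells gave 231, 1392 and 676 in Havcr2+Ifng+, Havcr2-Ifng+ and Havcr2-Ifng- cells. Thinned before gating, there were 1134, 1136 and 883 in the first 3, and with equal weight per cell 577 in Havcr2+Ifng- cells. Cells with neither Fos nor Hspa1a after thinning gave 1256 in Havcr2-Ifng+ cells. The female over male ratio turned to 0.48 for Egr1 in low-stress Treg cells (0.32 in those with neither gene after thinning), to -3.03 for Egr2 in other Cd4 cells with neither gene after thinning, to 0.12 for Hspa1a in Havcr2-Ifng- cells with equal weight per cell and, without other types' markers, to 1.26 for Hspa1a in Havcr2+Ifng- cells and 0.050 for Hspa1a and 0.032 for Irf4 in Treg cells.

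The stricter cell filter and DESeq2's size factors within edgeR moved no member count. With 1 library per sex, leaving out a library gives values with no test. Egr2 and Egr3 are limited by depth, at 23 and 12 UMIs over both libraries' Treg cells.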
